A study of Homo sapiens with 18 samples.

Results

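The long arm of human chromosome 6 (6q) was examined from position 110000000 to 155000000 in ATAC-seq data from 6 ovarian cancer cell lines. The stretch was chosen by its readout, because its 1 kb windows had higher values in CP70 than in A2780, and every window of the deposited table with a start between those limits was taken. This gave 1165 windows, 204 promoter windows and 961 distal windows, of 4577 on chromosome 6 and 89428 in the whole table. A promoter window had its centre between 1 kb upstream and 100 bp downstream of the start of a protein-coding transcript, and all others were distal. The remaining 3412 windows of chromosome 6, 666 promoter and 2746 distal, served as the reference.

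ATAC-seq measures where the Tn5 transposase can cut chromatin, so that promoters and enhancers free of nucleosomes gather reads. The value of a window, in FPKM, is its reads per kilobase, scaled to the total reads of the library. It depends both on how many copies of the DNA a cell holds and on how accessible each copy is, and these cannot be told apart in these data, where a change in all cells and a larger change in some of them cannot be told apart either. Chromosome 6q carries genes for DNA damage tolerance, transcription factors, regulators of inflammatory and interferon signalling and a cluster of ligands of the NKG2D receptor of natural killer cells, and parts of it are commonly lost or rearranged in ovarian cancer.

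There were 18 libraries, 3 of each line, and the lines were compared within 3 pairs, each with a line sensitive to platinum drugs and a resistant partner. A2780 is an established sensitive ovarian cancer line, labelled as endometrial or ovarian, and CP70 is a resistant line derived from it in vitro. PEA1 and PEA2 came from the ascites of a patient with high-grade serous cancer, PEA1 before chemotherapy and PEA2 after a resistant relapse. PEO1 and PEO4 also came from a single patient with this cancer, in whom platinum had been given before either line was made and resistance arose between them. All were grown in the same RPMI-1640 medium with serum, and no drug is named for these libraries. Each state is represented by 1 line per pair, and nothing in the labels says that the libraries of a line came from separate cultures, so p-values measure only the spread between these libraries.

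The libraries held from 8963079 reads (PEO1) to 60435027 reads (A2780), and the share of them inside windows of the table was 8.38% to 10.0% for A2780, 11.8% to 15.6% for CP70, 12.9% to 20.7% for the PEA lines and 32.9% to 40.8% for the PEO lines. Of the markers of the epithelial label, PAX8, WT1, EPCAM, KRT8 and KRT18 had a window over their start and MUC16 had none in the table. The PAX8 window was low in A2780 (0.610 FPKM) and CP70 (0.900 FPKM) and lay between 2.47 and 7.90 FPKM in the other lines. A2780 and CP70 were also the lowest lines at WT1 (1.10 and 1.49 FPKM, PEA1 1.97) and KRT8 (0.681 and 1.47 FPKM, PEA2 1.57). EPCAM and KRT18 did not set both lines apart. CP70 was above PEA1 at EPCAM (1.18 and 1.10 FPKM) and above PEA2 at KRT18 (1.99 and 1.27 FPKM). The fibroblast genes COL1A1 and PDGFRB and the leukocyte genes PTPRC and CD3E had no window in the table. CP70 replicate 1 had the highest values of its line at most promoters, and the counts it decides are given with and without it.

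The sequences below, from GRCh37, show the places on which the results turn: the promoters on either side of the point where the shift in CP70 began (PDSS2 and SOBP), 2 promoters with large differences in CP70 (HIVEP2 and ULBP3), the distal window with the largest difference in CP70, and distal windows that changed in the other pairs. Promoters are the 200 bases upstream of the canonical start on the gene's strand, and distal stretches are on the forward strand. Capitals mark matches, on either strand, to the letters TGANTCA for AP-1, GGAATG for TEAD, CCGGAA for ETS factors, CCAAT for the CCAAT box, GGGCGG for the GC box, TGACGTCA for the cyclic AMP response element (CRE) and AGGNGGC for the CTCF core, of which the CTCF core and the GC box can share letters.
PDSS2 promoter, chr6:107780769-107780968, minus strand: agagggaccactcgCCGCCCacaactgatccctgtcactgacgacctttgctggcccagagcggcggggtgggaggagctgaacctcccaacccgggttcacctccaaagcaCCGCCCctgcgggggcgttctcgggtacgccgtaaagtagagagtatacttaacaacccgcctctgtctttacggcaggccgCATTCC
SOBP promoter, chr6:107811121-107811320, plus strand: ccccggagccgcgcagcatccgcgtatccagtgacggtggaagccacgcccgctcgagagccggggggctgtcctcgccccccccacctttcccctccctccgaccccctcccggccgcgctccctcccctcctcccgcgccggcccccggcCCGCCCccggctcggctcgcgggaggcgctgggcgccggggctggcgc
HIVEP2 promoter, chr6:143266314-143266513, minus strand: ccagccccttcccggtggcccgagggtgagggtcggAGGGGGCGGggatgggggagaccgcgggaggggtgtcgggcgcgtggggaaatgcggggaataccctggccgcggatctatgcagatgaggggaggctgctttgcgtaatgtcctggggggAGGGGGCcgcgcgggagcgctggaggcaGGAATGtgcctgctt
ULBP3 promoter, chr6:150390258-150390457, minus strand: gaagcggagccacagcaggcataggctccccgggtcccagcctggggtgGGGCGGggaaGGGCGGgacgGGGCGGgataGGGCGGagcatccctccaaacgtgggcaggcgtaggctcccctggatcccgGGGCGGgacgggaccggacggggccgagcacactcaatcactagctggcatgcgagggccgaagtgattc
Intergenic window 109 kb from EYA4, chr6:133452400-133452599, plus strand: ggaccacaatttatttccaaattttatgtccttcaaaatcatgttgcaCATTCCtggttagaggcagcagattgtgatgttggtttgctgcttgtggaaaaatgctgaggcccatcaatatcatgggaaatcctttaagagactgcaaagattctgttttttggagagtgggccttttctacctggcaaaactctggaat
Intron of UST, chr6:149353228-149353347, plus strand: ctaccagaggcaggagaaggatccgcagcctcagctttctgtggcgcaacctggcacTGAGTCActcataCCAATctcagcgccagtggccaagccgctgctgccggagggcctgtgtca
Intron of SASH1, chr6:148841500-148841699, plus strand: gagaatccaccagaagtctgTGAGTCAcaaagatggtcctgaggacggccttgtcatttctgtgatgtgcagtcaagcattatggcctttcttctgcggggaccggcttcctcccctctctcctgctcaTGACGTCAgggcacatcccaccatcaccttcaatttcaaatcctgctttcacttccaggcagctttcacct
Intergenic window 310 kb from EYA4, chr6:133873022-133873141, plus strand: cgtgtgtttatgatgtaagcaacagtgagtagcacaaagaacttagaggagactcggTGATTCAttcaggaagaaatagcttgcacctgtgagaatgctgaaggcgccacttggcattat
Intron of ESR1, chr6:152375736-152375855, plus strand: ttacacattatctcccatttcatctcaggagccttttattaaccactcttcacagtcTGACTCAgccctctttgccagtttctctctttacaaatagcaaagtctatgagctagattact

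The PDSS2 and SOBP promoters both held a GC box, as did 53.7% of the 1046 upstream stretches of the same length of coding genes on chromosome 6, and ULBP3 held 5 of them. The stretch 109 kb from EYA4 had no CpG and a TEAD match. The UST, SASH1 and ESR1 stretches and the one 310 kb from EYA4 each held an AP-1 match, around which all but the SASH1 stretch were centred. An AP-1 match was present in 53.1% of the distal 6q windows, 43.8% of the distal windows of the rest of chromosome 6 and 43.3% of all 72431 distal windows, each counted over the whole 1001 bases. GC boxes went the other way, in 24.8% of the distal 6q windows and 37.3% of all distal windows. Among promoter windows 56.9% of those on 6q and 62.0% of all were CpG-rich, that is, over 50% GC with more than 0.6 of the CpG that their base composition gives. A match describes the letters only and does not show that a factor binds.

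The first comparison asked how the 6q windows stood in each line. Over the 204 promoter windows the median of the line means was 0.965 FPKM in A2780 against 2.90 in CP70, 2.05 in PEA1 against 1.39 in PEA2, and 8.47 in PEO1 against 6.35 in PEO4. Over the 961 distal windows it was 0.210 FPKM in A2780 against 0.400 in CP70, 0.475 in PEA1 against 0.736 in PEA2, and 3.44 in PEO1 against 2.23 in PEO4. The order of the promoter medians was thus PEO1, PEO4, CP70, PEA1, PEA2 and A2780, and only PEA1 and PEA2 overlapped between libraries among neighbours in that order. Every window of the table had over 2 FPKM in at least 2 libraries, which could be those of PEO1 and PEO4 alone. Just 35 of the 204 promoter windows and 18 of the 961 distal windows had a mean above 2 FPKM in A2780.

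Set against the rest of chromosome 6 within each library, the order of the sensitive and resistant lines differed from pair to pair. On the log2(FPKM + 0.1) scale the median 6q promoter window lay 0.65 ± 0.14 (SD, n = 3) below the rest of the chromosome in A2780, a difference of −0.65, and stood at 0.07 ± 0.04 in CP70. The same difference was −0.67 ± 0.10 in PEA1 and −0.74 ± 0.06 in PEA2, where the libraries overlapped. It was 1.13 ± 0.06 in PEO1 and −0.14 ± 0.10 in PEO4. Distal windows gave −0.91 ± 0.05 in A2780 against −0.43 ± 0.09 in CP70, −1.13 ± 0.07 in PEA1 against −1.38 ± 0.05 in PEA2, and 0.99 ± 0.05 in PEO1 against 0.03 ± 0.00341 in PEO4. All 3 CP70 libraries were above all 3 A2780 libraries in both classes, and all 3 PEO1 libraries were above the libraries of every other line.

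**Figure D1:**
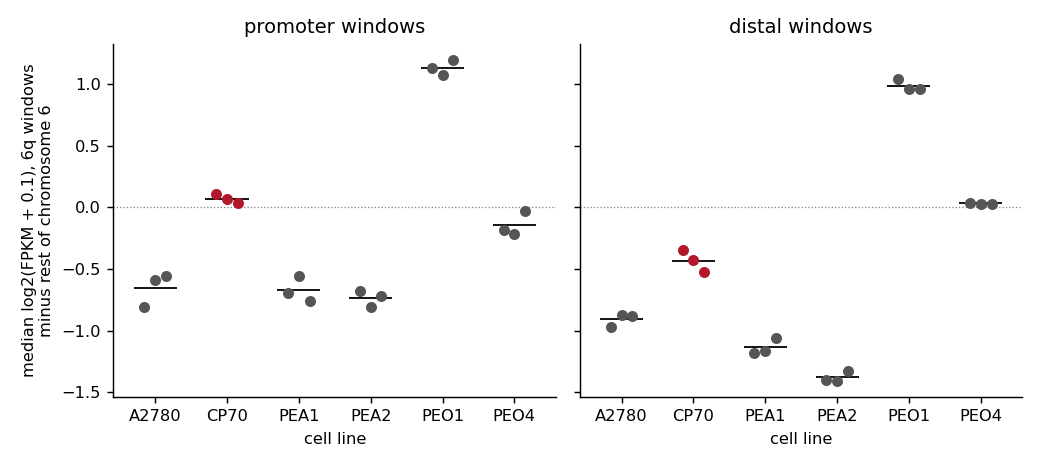
Median of log2(FPKM + 0.1) over the 6q windows minus the median over the rest of chromosome 6, 1 point per library and a line at the mean of 3 libraries, for promoter windows (left) and distal windows (right). CP70 (red) lies above A2780 in both panels, and PEO1 stands highest, at a mean of 1.13 for promoter and 0.99 for distal windows.

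The prominence of PEO1 held window by window. PEO1 had the highest line mean at 181 of the 204 promoter windows (88.7%) and 767 of the 961 distal windows (79.8%) on 6q, against 18.5% and 21.0% of the windows on the rest of chromosome 6. These are shares of the windows in the table, which a window could enter through PEO1 alone. On the rest of the chromosome PEO4 was most often the highest line, at 71.2% of promoter and 36.8% of distal windows. CP70 was the highest line at 2 promoter and 16 distal windows of 6q and A2780 at 1 distal window. The windows with the highest mean over all 18 libraries had their highest values in PEO1. Those values weigh most in that mean, so this adds nothing to the counts. The windows were the promoters of RWDD1 (12.7 FPKM over the 18 libraries) and ARMT1 (11.9 FPKM), and the distal windows in an intron of ZBTB2, a zinc finger repressor (22.3 FPKM), and in an exon of RAB32, a small GTPase of organelle transport (14.2 FPKM). Both distal windows are CpG-rich and close to a gene start, with centres 994 bp (ZBTB2) and 231 bp (RAB32) away.

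The second comparison was CP70 against A2780, the contrast on which the region was selected. Its thresholds serve here only to sort windows by size and spread, no p-value is given, and nothing is read from the counts. Only windows averaging over 1 FPKM in the 6 libraries of the pair were fitted, which kept 148 promoter and 170 distal windows of 6q. Of these distal windows 99 were CpG-rich. The other 847 of the 1165 were too low. The median log2 fold change was 1.49 for promoter windows (interquartile range 1.25 to 1.72) and 1.44 for distal windows (1.15 to 1.70), against 0.71 and 0.64 on the rest of chromosome 6 and 0.59 over all 37128 fitted windows, a general shift. The CP70 libraries also had the larger share of their reads in the table, and its part in the shift was not tested. The excess over the rest of chromosome 6 was 0.79 for promoter and 0.79 for distal windows. Centring all libraries on their medians moves every window of a library alike, so it cannot change this excess. Of the 318 fitted windows 316 had a higher value in CP70, as had 90.3% of all fitted windows and 92.7% of those on the rest of chromosome 6. In 303 of the 318 all 3 CP70 libraries were above all 3 A2780 libraries, a pattern found in 56.2% of all fitted windows.

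With a log2 fold change above 1 and a limma adjusted p below 0.05, 127 promoter and 143 distal windows were higher in CP70 and 1 distal window was lower, where 11.4% of all fitted windows were higher and 1.1% were lower. At the study's stricter thresholds, a log2 fold change above 2 and an adjusted p below 0.001, 13 promoter and 23 distal windows were higher and none was lower, and over all windows 0.428% were higher and 0.369% lower. These shares follow from how the region was picked. The stricter count rested on single libraries, with 11 windows in place of 36 without CP70 replicate 1 and 59 without CP70 replicate 3, and all were higher in CP70 in both cases. On median-centred values 6 windows were called.

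The windows too low to fit also had higher values in CP70. Over these 847 windows the mean was between 0.221 and 0.244 FPKM in the A2780 libraries and between 0.422 and 0.491 FPKM in the CP70 libraries, a ratio of 1.95. The 2078 windows of the rest of chromosome 6 that were too low to fit had 0.436 FPKM in A2780 and 0.505 FPKM in CP70, a ratio of 1.16. Below 105 Mb, a reference chosen after the values were seen, 1781 such windows had 0.460 FPKM in A2780 and 0.497 FPKM in CP70, a ratio of 1.08. The higher values on 6q thus included windows with few reads in either line. The region was chosen on this contrast, so nothing more is read from these ratios. A comparison by kind of window gave similar medians throughout: 1.48 for 205 CpG-rich and 1.44 for 113 other windows, 1.48 for 94 intronic and 1.39 for 45 intergenic distal windows, and 1.51 for 61 windows with and 1.45 for 257 without an AP-1 match. By level, the medians were 1.33, 1.52 and 1.55 from the lowest to the highest of 3 equal groups of the fitted windows.

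**Figure D2:**
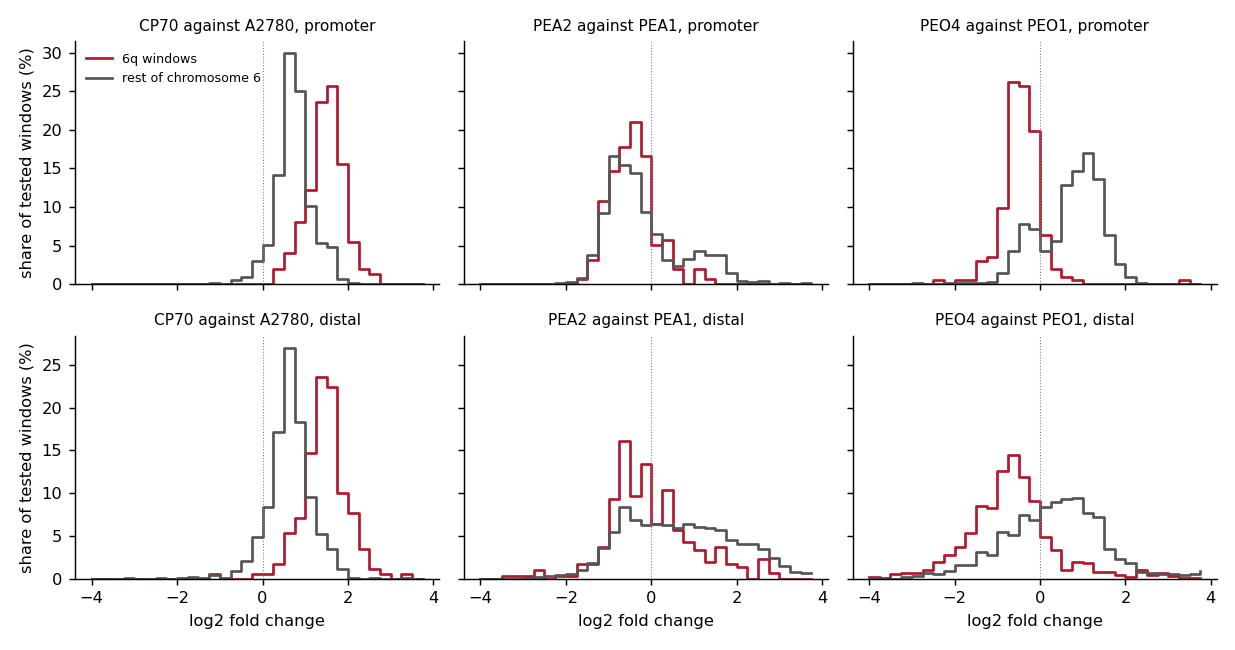
Share of fitted windows by log2 fold change (bins of 0.25) for the 6q windows (red) and the rest of chromosome 6 (grey), promoter windows above and distal windows below, 1 column per pair. In CP70 the red curves lie to the right of the grey in both classes, at medians of 1.49 and 1.44, in PEO4 they lie to the left, and in PEA2 the promoter medians are close (−0.48 and −0.45). Values beyond ±4 are counted in the end bins.

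Along the chromosome the higher values in CP70 did not begin or end at the limits of the region. Bins of 5 Mb below 105 Mb with at least 20 fitted windows had medians between 0.31 and 0.74, whereas the bins of the region lay between 1.37 and 1.75 apart from a bin at 120 Mb with 11 windows and a median of 0.81. The 4 bins from its upper limit to the end of the chromosome had 1.53, 1.55, 1.38 and 1.26. Among 493 bins of the genome with at least 20 fitted windows, the 12 highest medians were all on chromosome 6 from 105 Mb onward. The region is therefore the middle of a longer stretch that reached the end of the chromosome, and the rest of chromosome 6 includes 29 fitted windows of it on the lower side and 105 on the upper side. With windows below 105 Mb as the reference, chosen after the values were seen, the excess in CP70 was 0.83 for promoter and 0.84 for distal windows.

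A single split of the fitted windows of chromosome 6 with the least squared deviation from its means, placed after the values were seen, fell between PDSS2 and SOBP. PDSS2 encodes a subunit of an enzyme of coenzyme Q synthesis, and the windows on either side of the split are 28.7 kb apart. The PDSS2 promoter window, chr6:107780400-107781400, had 2.84, 2.91 and 2.71 FPKM in A2780 and 6.29, 3.77 and 3.48 FPKM in CP70, a log2 fold change of 0.61. The nearer SOBP promoter window, chr6:107810100-107811100, had 0.976, 0.991 and 1.24 FPKM in A2780 and 4.55, 2.93 and 2.93 FPKM in CP70, a log2 fold change of 1.59. The libraries of the 2 lines did not overlap at either window, but the ratio of CP70 to A2780 on the log2(FPKM + 0.1) scale changed from 1.53 to 3.01.

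All 29 fitted windows between that split and 110 Mb had a log2 fold change above 1, with a median of 1.51 and a range of 1.21 to 2.03. They included the promoters of SEC63, SNX3, CD164 and the transcription factor FOXO3, which acts downstream of AKT. Of the 25 fitted windows between 105 Mb and the split 2 were above 1, with a median of 0.61. Past the split to the end of the chromosome 397 of 452 windows (87.8%) were above 1 and 2 were below 0. Below 105 Mb 12.2% of 1175 windows were above 1.

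**Figure D3:**
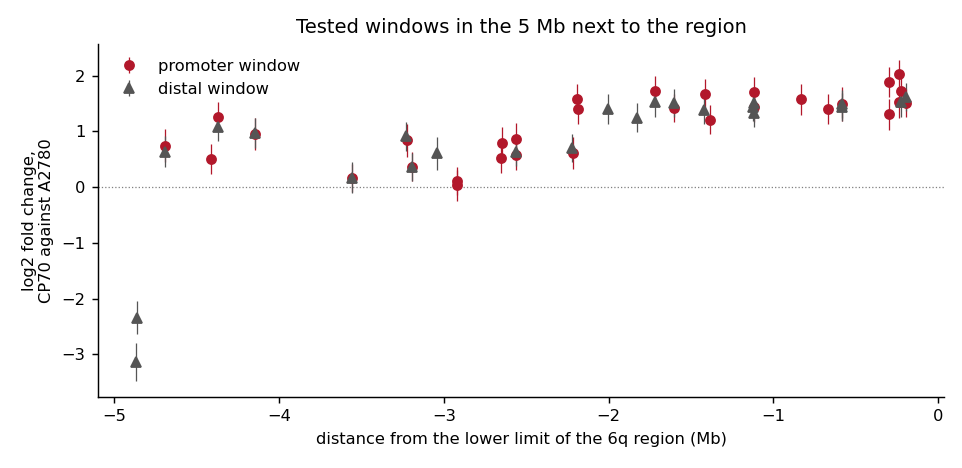
Log2 fold change of CP70 against A2780 with its standard error for each fitted window in the 5 Mb below the region's lower limit, promoter windows as circles and distal windows as triangles. All 29 windows to the right of the split between PDSS2 and SOBP lie above 1, against 2 of 25 to its left.

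The windows nearest the limits were alike inside and outside. Just below the lower limit both ZBTB24 windows had log2 fold changes of 1.62 and 1.51, and just inside it the FIG4 promoter had 1.65, while a distal FIG4 window was too low to fit (0.174 FPKM in A2780 and 0.341 FPKM in CP70). Just inside the upper limit the windows at CNKSR3 had 1.60 and 1.42, and just beyond it both SCAF8 windows had 1.79 and 1.57.

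Among genes, 152 of the 212 coding genes with their canonical start in the region had a window over it, and 134 of these windows were fitted. Of these, 115 were at least at the looser thresholds in CP70. From a list of 44 genes sorted by role, 39 had a window over the start and TCF21, SGK1, ROS1, RAET1E and SLC22A16 had none. Of the 32 fitted in this pair, 28 were higher in CP70 at the looser thresholds and none was lower, against 11.4% and 1.1% of all windows. The 4 below them, ULBP1, RAET1G, PTPRK and SYNE1, had log2 fold changes of 0.81 to 0.99.

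The 7 genes listed under replication and repair differed by similar amounts, though not all of them act in these processes. REV3L, the catalytic subunit of the translesion polymerase zeta that helps cells bypass platinum adducts, had 2.35, 2.73 and 2.15 FPKM in A2780 and 9.09, 6.64 and 6.45 FPKM in CP70. The lines did not overlap, and the log2 fold change was 1.57 (SE 0.30). The helicase gene MCM9 (1.27), the histone chaperone gene ASF1A (1.63), the centromere gene CENPW (1.23), the anaphase-promoting complex inhibitor gene FBXO5 (1.50), the Mediator kinase gene CDK19 (1.64) and the tubulin gene TUBE1 (1.16) gave the other 6 values of the group. Their median was 1.50, where all fitted 6q promoter windows had a median of 1.49 and 85.8% of them were higher at the looser thresholds. The windows over the MCM9 and FBXO5 starts are classed as distal, and fitted distal 6q windows had a median of 1.44 with 84.1% higher.

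The 8 fitted transcription factors and cofactors had a median of 1.79. HIVEP2, a zinc finger factor that binds NF-kappaB motifs, had 1.22, 1.37 and 0.876 FPKM in A2780 and 6.29, 4.55 and 5.15 FPKM in CP70 at its start, a log2 fold change of 2.12 (SE 0.27). CITED2, a CBP/p300-binding regulator of hypoxia signalling, had 1.97, 2.23 and 1.93 FPKM in A2780 and 12.1, 6.70 and 7.16 FPKM in CP70, a log2 fold change of 1.98. HEY2 (1.90), MYB (1.80), EYA4 (1.78), BCLAF1 (1.73), HDAC2 (1.34) and PLAGL1 (1.05) followed. ESR1, the oestrogen receptor gene, was too low to fit at its start, with 0.296 to 0.529 FPKM in A2780 and 0.152 to 1.20 FPKM in CP70, where the lines overlapped.

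In the Hippo and kinase group CCN2, a secreted YAP/TEAD target, had a log2 fold change of 1.79, and the kinase genes LATS1 and FYN and the scaffold gene SASH1 had 1.37, 1.33 and 1.40. The 4 genes of the inflammatory and interferon group had a median of 1.87. TNFAIP3, which encodes the NF-kappaB inhibitor A20, had 1.89, the interferon gamma receptor gene IFNGR1 1.85, the cytokine receptor gene IL20RA 1.98 and the kinase adaptor gene TAB2 1.64. At TNFAIP3 the A2780 libraries had 1.60, 1.80 and 1.34 FPKM and the CP70 libraries 7.50, 5.69 and 5.32 FPKM. At IFNGR1 the A2780 libraries had 1.78, 2.07 and 1.82 FPKM and the CP70 libraries 11.4, 5.87 and 5.19 FPKM, so that the lines overlapped at neither gene.

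The NKG2D ligand genes lie side by side near 150 Mb and were unequal. ULBP3 had 1.22, 1.13 and 1.09 FPKM in A2780 and 9.55, 5.81 and 5.57 FPKM in CP70, a log2 fold change of 2.46 (SE 0.28), the largest on the list. ULBP2 had 1.70, ULBP1 0.99 and RAET1G 0.91, and RAET1L was too low to fit. These genes are close relatives, and reads that align to more than 1 of them would be lost from a count of unique alignments. Adhesion and matrix genes were as uneven: PERP, a p53 target of desmosomes, had 2.25, UTRN 1.35, PTPRK 0.98 and SYNE1 0.81. The laminin gene LAMA2 was not higher in CP70, with 0.558, 1.01 and 0.595 FPKM in A2780 and 0.455, 0.718 and 0.419 FPKM in CP70, which overlapped and were too low to fit. LAMA4, MARCKS, RSPO3 and SLC2A12 were also too low, and the amino acid transporter gene SLC16A10 had 1.27.

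**Figure D4:**
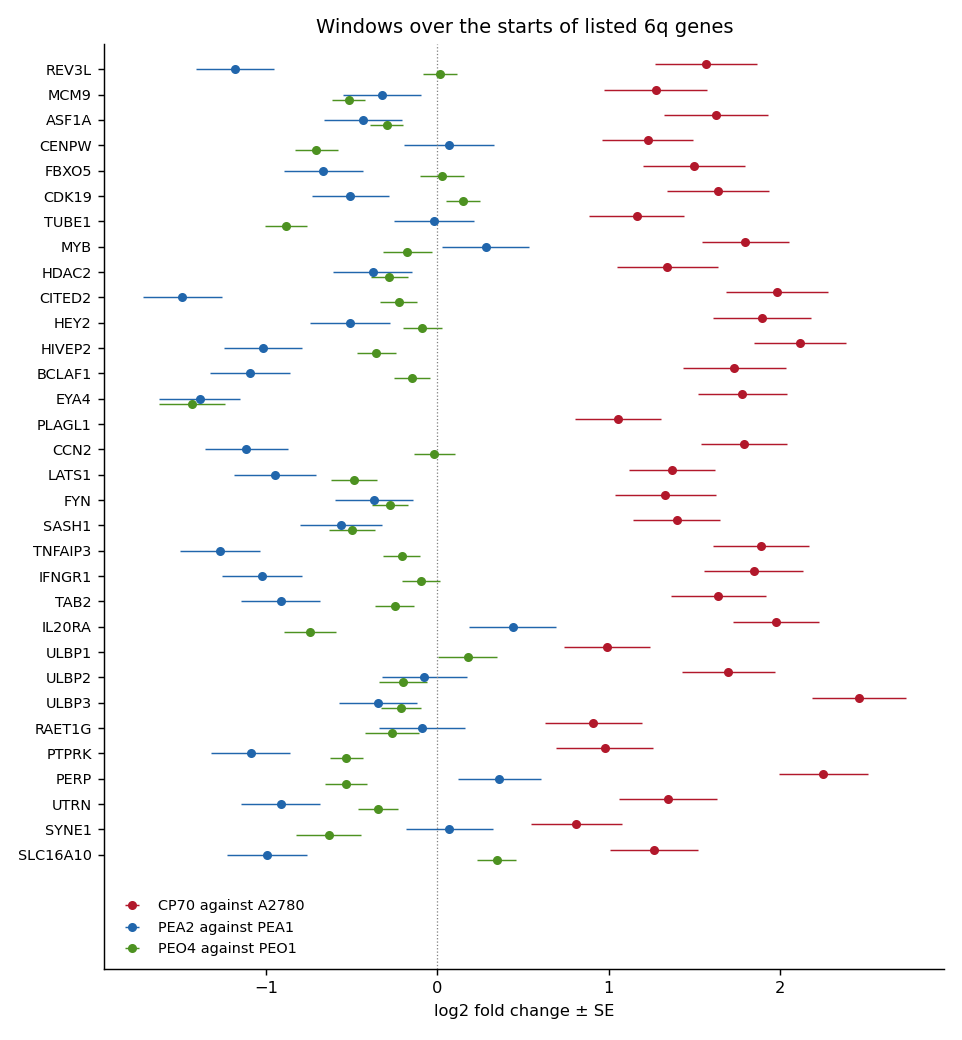
Log2 fold change with its standard error at the start of each listed 6q gene fitted in the A2780 pair, for CP70 against A2780 (red), PEA2 against PEA1 (blue) and PEO4 against PEO1 (green). All 32 red points lie between 0.81 and 2.46, and the blue points lie between −1.49 and 0.44.

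The largest difference in CP70 was in a distal window, and windows within 5 kb of one already named were passed over. The intergenic window chr6:133452000-133453000, 109 kb from the start of the EYA4 gene for a phosphatase and transcriptional coactivator, had 0.331, 0.361 and 0.198 FPKM in A2780 and 6.06, 4.01 and 2.81 FPKM in CP70, a log2 fold change of 3.43. It was at 1.10 to 2.53 FPKM in PEA1 and PEA2 and 5.64 to 10.0 FPKM in PEO1 and PEO4. A2780 thus had the lowest values there, which picking the window by its difference between CP70 and A2780 favours. A window near RPS12 (chr6:133139700-133140700, log2 fold change 2.68), one 143 kb from ADGB (chr6:147234600-147235600, 2.60) and one in an intron of MAP3K5, which encodes the stress kinase ASK1 (chr6:137112300-137113300, 2.48), were the next distal windows. Promoter windows of HIVEP2 (2.59) and MAP3K5 (2.58) lay between the last of these and the ADGB window. The distal MAP3K5 window is CpG-rich and centred 815 bp from a start. Of the 23 distal windows at the stricter thresholds 9 were CpG-rich, and their median distance from a start was 1.22 kb.

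The 13 promoter windows at the stricter thresholds belonged to 9 genes, named after their values were seen: 3 windows at HIVEP2, 2 each at NCOA7 and MAP3K5, and 1 each at TNFAIP3, PERP, ARFGEF3, ADGRG6, ULBP3 and ZBTB2. The largest were an upstream window of HIVEP2 (2.59, with 0.837 to 1.62 FPKM in A2780 and 5.70 to 10.2 FPKM in CP70) and the MAP3K5 promoter (2.58, with 1.15 to 1.53 FPKM and 6.78 to 11.5 FPKM). A single window was lower in CP70 with no overlap. It lay between genes, 467 kb from HSF2 (chr6:122253300-122254300), and had 1.83, 2.43 and 1.59 FPKM in A2780 and 1.14, 0.838 and 0.712 FPKM in CP70, a log2 fold change of −1.04.

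The third comparison, PEA2 against PEA1, did not enter the choice of the region. The 157 fitted promoter windows had a median log2 fold change of −0.48, close to −0.45 on the rest of chromosome 6 and below −0.18 over all promoter windows. The 299 fitted distal windows had −0.15, against 0.60 on the rest of chromosome 6 and 0.52 over all distal windows. The rest of the chromosome was itself uneven, since the bins between 70 and 105 Mb had medians of 1.30 to 2.22 and the bin from 105 Mb fell to −0.67. The distal 6q windows therefore lay below a reference that includes a strongly raised stretch of the same chromosome.

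At the stricter thresholds (limma, all 66103 fitted windows) 13 distal 6q windows were higher and 7 lower in PEA2, or 4.35% and 2.34% of the 299, where 11.2% of all windows were higher and 1.42% lower (14.3% and 1.66% of all distal windows). No promoter window was called. Without PEA2 replicate 1 the count was 11. At the looser thresholds 4 promoter windows were higher and 23 lower, and 45 distal windows were higher and 29 lower, or 49 and 52 together, where 29.7% of all windows were higher and 9.27% lower. With libraries centred on their medians, which removes a general shift of 0.31, the counts became 30 higher and 137 lower. The balance also rested on single libraries, with 71 higher and 38 lower without PEA1 replicate 1, 74 and 29 without PEA1 replicate 2, 58 and 88 without PEA1 replicate 3 and 24 and 65 without PEA2 replicate 1.

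Of the listed genes 33 were fitted, 9 fell at the looser thresholds and none rose, where 12.4% of all fitted promoter windows were lower and 8.87% higher (14.6% and 2.55% on 6q). Some windows over listed starts, that of BCLAF1 among them, are classed as distal. Of all fitted distal windows 8.29% were lower and 36.2% higher (9.70% and 15.1% on 6q). CITED2 fell by 1.49 (SE 0.23, limma adjusted p = 8.09e-10), from 4.36, 4.33 and 3.12 FPKM in PEA1 to 1.32, 1.27 and 1.38 FPKM in PEA2. EYA4 fell by 1.39 (adjusted p = 1.38e-08), TNFAIP3 by 1.27 (1.80e-07), REV3L by 1.18 (8.04e-07) and CCN2 by 1.12 (1.22e-05). BCLAF1, PTPRK, IFNGR1 and HIVEP2 fell by 1.09, 1.09, 1.03 and 1.02. The last 4 and CCN2 lay close to the limit of 1 and lost the call without PEA1 replicate 2 or without PEA2 replicate 2, and IFNGR1 and HIVEP2 also without PEA1 replicate 1 or PEA2 replicate 3. The list's median was −0.55, against −0.48 for 6q promoter windows and −0.18 for all promoter windows. Neither IL20RA (0.44, adjusted p = 0.121) nor MYB (0.28, adjusted p = 0.333) passed.

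Larger changes in PEA2 were found at distal windows. A window in an intron of UST, the gene of a glycosaminoglycan sulfotransferase, had 4.71, 5.05 and 3.69 FPKM in PEA1 and 0.440, 0.289 and 0.399 FPKM in PEA2 (chr6:149353200-149354200). It fell by 3.27 (adjusted p = 7.69e-36) and stood at 11.3 FPKM or more in PEO1 and PEO4. The UST window held an AP-1 match, as did 6 of the 7 distal windows that fell and 11 of the 13 that rose. The share was 53.1% of the distal 6q windows and 43.3% of all distal windows. A CCAAT box was as frequent, in 7 of the 7 that fell, 11 of the 13 that rose and 76.1% of the distal 6q windows.

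The largest rises in PEA2 were in an intron of MCM9 (chr6:119203200-119204200, log2 fold change 2.99, adjusted p = 3.00e-18) and 165 kb from TMEM200A (chr6:130923000-130924000, 2.92, adjusted p = 3.87e-19). The MCM9 window had 0.160, 0.249 and 0.144 FPKM in PEA1 and 2.36, 1.68 and 2.44 FPKM in PEA2, with no overlap. No library outside PEA2 exceeded 1.32 FPKM there, so this window entered the table through PEA2 alone, which its adjusted p-value does not allow for. The TMEM200A window, at 0.0959 to 0.312 FPKM in PEA1 and 2.02 to 2.47 FPKM in PEA2, was highest in PEO1 at 9.42 to 11.6 FPKM and fell there to 2.73 to 3.46 FPKM in PEO4. Among the 7 that fell were also 2 windows in the CCN2 gene, centred 812 bp and 1712 bp from its start, which fell by 2.68 and 2.01. They are named here because of their values.

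The fourth comparison, PEO4 against PEO1, concerned lines in which nearly all of the region could be fitted, 202 promoter and 941 distal windows. The median log2 fold change was −0.45 for promoter and −0.69 for distal windows, against 0.85 and 0.40 on the rest of chromosome 6. Compared with other chromosomes, where the medians were −0.07 and −0.42, the 6q windows differed by −0.38 and −0.27. The split of least squared deviation for this pair lay at 82.8 Mb near IBTK, with medians of 0.87 before and −0.57 after it.

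At the stricter thresholds (limma, all 77654 fitted windows) 1 promoter and 28 distal windows were higher and 1 promoter and 75 distal windows were lower in PEO4. These are 2.98% and 7.97% of the distal windows, where 2.72% of all windows were higher and 5.78% lower (3.34% and 7.09% of all distal windows). At the looser thresholds 65 windows were higher and 334 lower (5.69% and 29.2%), against 9.63% and 23.6% of all windows. Centred libraries gave 37 higher and 40 lower at the stricter and 90 and 216 at the looser thresholds, since the general shift was −0.30 in this pair. Of the 202 fitted 6q promoter windows 181 had a lower value in PEO4, as had 8971 of all 16458 fitted promoter windows. At the looser thresholds 7.92% of the 6q promoter windows were lower, against 8.77% of all promoter windows. Among the 38 listed genes that were fitted, 20 were lower and 1 was higher at an adjusted p below 0.05 whatever the size. The share of all windows at that limit was not taken, so nothing is read from these counts. EYA4 alone passed the looser thresholds, falling by 1.43 (SE 0.19, adjusted p = 4.21e-08) from 3.64, 5.15 and 4.46 FPKM to 1.45, 1.54 and 1.69 FPKM.

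The 2 promoters called in PEO4 moved in opposite directions. ECT2L, a gene related to guanine nucleotide exchange factors, rose by 3.38 on the log2 scale (adjusted p = 6.17e-11), and NHSL1, an actin regulator, fell by 2.42 (adjusted p = 2.86e-08). Both are named because of their values. ESR1 had its highest values at its start in PEO1, with 7.99, 8.20 and 8.36 FPKM, and PEO4, with 7.38, 7.87 and 7.32 FPKM, against at most 1.48 FPKM in the other lines, and did not pass in this pair (log2 fold change −0.12, adjusted p = 0.398).

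Distal windows showed the largest changes of this pair. A window in an intron of the scaffold gene SASH1 (chr6:148841100-148842100) had 0, 0.436 and 0 FPKM in PEO1 and 3.20, 3.50 and 3.54 FPKM in PEO4, a log2 fold change of 4.33 (adjusted p = 1.88e-10), and no other library exceeded 0.586 FPKM. A window 128 kb from TNFAIP3 (chr6:138060000-138061000) had 0.405, 0.698 and 0.111 FPKM in PEO1 and 5.06, 5.71 and 5.08 FPKM in PEO4, a log2 fold change of 3.61 (adjusted p = 1.11e-12). No library outside PEO4 exceeded 0.698 FPKM at the latter window. Both windows therefore entered the table, where every window had over 2 FPKM in at least 2 libraries, through PEO4 alone. Their adjusted p-values take no account of this. The PEO1 values at the SASH1 window rest on 0 to 5 reads per library. The SASH1 stretch printed above holds both an AP-1 and a CRE match, and a CRE was present in 0.891% of all distal windows.

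In the other direction, a window 310 kb from EYA4 (chr6:133872300-133873300) had 7.08, 6.54 and 7.13 FPKM in PEO1 and 0.233, 0.336 and 0.548 FPKM in PEO4, and fell by 3.95 (adjusted p = 2.85e-16). A window in an intron of ESR1 (chr6:152375400-152376400) had 5.16, 4.62 and 4.79 FPKM in PEO1 and 0.174, 0.240 and 0.299 FPKM in PEO4, and fell by 3.89 (adjusted p = 1.38e-14), although the ESR1 start itself did not pass. The EYA4 promoter and this distal EYA4 window were thus both lower in PEO4. Outside PEO1 no library exceeded 0.754 FPKM at the distal EYA4 window or 1.21 FPKM at the ESR1 intron window. Both therefore entered the table through PEO1 alone, which their adjusted p-values do not allow for. Of the 75 distal windows that fell 55 held an AP-1 match (73.3%), and of the 28 that rose 10 did (35.7%), beside 53.1% of all distal 6q windows.

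**Figure D5:**
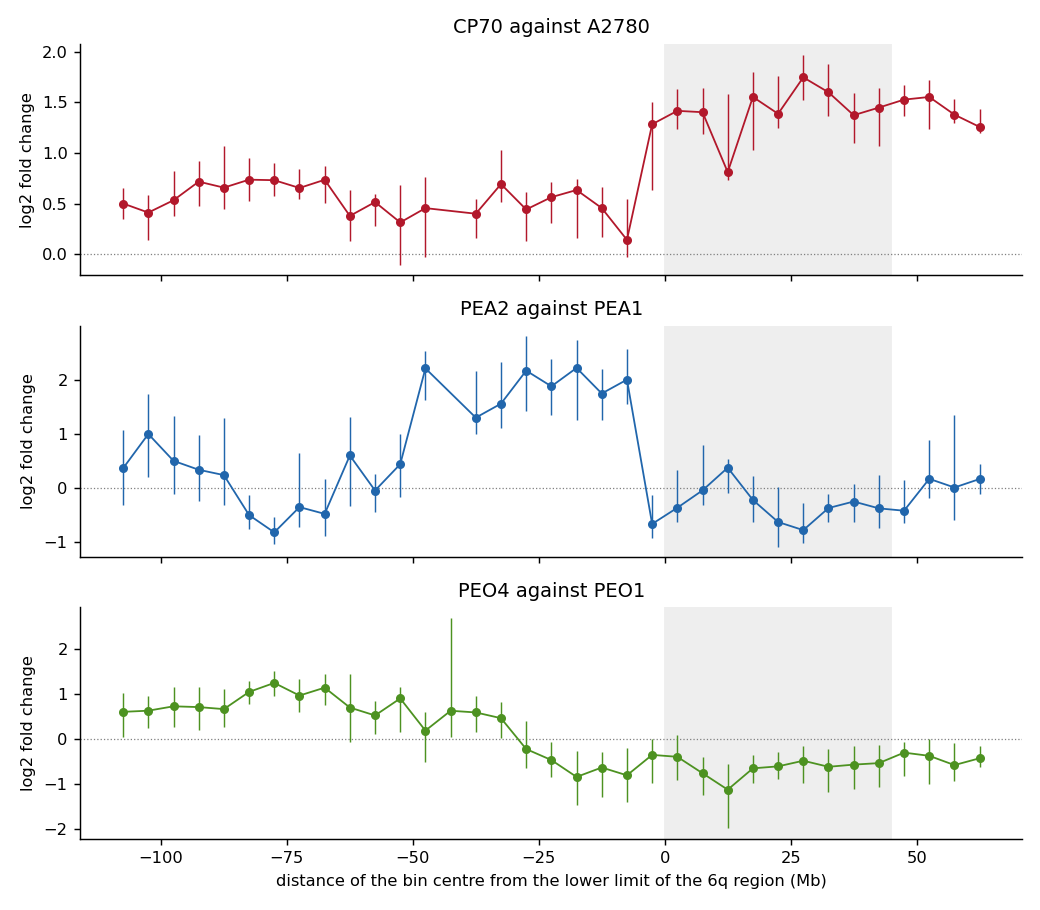
Median log2 fold change of fitted windows in 5 Mb bins along chromosome 6, with bars from the lower to the upper quartile, for each pair against the distance of the bin centre from the region's lower limit (grey, the region, bins with at least 5 windows). CP70 steps up in the bin before the grey area and stays up to the end of the chromosome, PEA2 steps down in the same bin from 2.00 to −0.67, and PEO4 lies below 0 from the bin at −27.5 Mb on.

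The 3 pairs did not share an overall direction on 6q, as the promoter medians were 1.49 (CP70), −0.48 (PEA2) and −0.45 (PEO4). Against promoter windows of the rest of chromosome 6 the differences were 0.79, −0.04 and −1.30. At the stricter thresholds 1 window was called in both the PEA and PEO pairs, 5% of the 20 called in the former and 0.952% of the 105 in the latter. It was higher in PEA2 and lower in PEO4. The share called in both pairs over all windows was not taken, so nothing is read from this count.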

How the data were processed

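The authors aligned paired reads to hg19 with Bowtie2 after duplicate removal with Picard (versions not given in the sources used here), counted unique reads in 1 kb windows and deposited FPKM, which with windows of equal length equals RPM. Windows start every 900 bp and were read as 1001 bases. The deposited values were whole multiples of 1 read in 100% of cases (tolerance 0.01 reads), from which reads per window and library totals were recovered. Reads carry no molecular identifiers, so they are not independent molecules. The table matched GRCh37 at 23 of 23 chromosome steps, and genes came from GENCODE v44lift37. All 18 sample columns were used.

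The windows, gene list and motifs were chosen with earlier results of these data known. Per pair, log2(FPKM + 0.1) of windows with a mean above 1 FPKM was compared with limma 3.58.1 (mean-variance trend) in R 4.3.3, adjusted over all fitted windows (Benjamini-Hochberg). The study weighted counts with voom, and FPKM took their place here. Named windows were those over canonical starts of the listed genes, the largest non-overlapping differences per pair more than 5 kb apart, those nearest the limits and those with the highest means. The fit was tested on simulated data. Replicate libraries of a line differed by 1.09 to 3.38 chi-square per window, where sampling noise gives about 1, and none was merged. Alternatives were pseudocounts of 0.5 and 1, no filter, a mean above 2 FPKM, the study's upper depth limit, median centring, quantile normalization, a replicate block, edgeR 4.0.16 on the recovered reads, leaving out each library, starts of all transcripts and other references. A window that met the naming rule is not reported here.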

Additional observations from a re-analysis of the deposited data

Results flagged for a closer look

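At the starts of 8 listed genes all CP70 libraries lay above all A2780 libraries while all PEA2 libraries lay below all PEA1 libraries, with a log2 change over 1 in both pairs. The difference between the pairs (CP70 change minus PEA2 change, log2) was 3.47 at CITED2, 3.17 at EYA4, 3.16 at TNFAIP3, 3.14 at HIVEP2, 2.91 at CCN2, 2.87 at IFNGR1, 2.83 at BCLAF1 and 2.75 at REV3L. The medians of all fitted 6q promoter windows were also opposite in sign, 1.49 in CP70 and −0.48 in PEA2. The share of 6q promoter windows that meet the same rule was not taken. EYA4 also moved in opposite directions in CP70 and PEO4, with a difference of 3.21. These differences were not tested, because the CP70 contrast had served to choose the region. Groups of 3 libraries are too small for a check of single outlying libraries.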

How the results depend on the processing

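The PEA2 promoter median (−0.04) was near 0 and came out at 0.05 with no filter, 0.01 with the upper depth limit, 0.0030 with a pseudocount of 1 and 0.03 without PEA1 replicate 2. The other medians kept their sign. At the stricter thresholds the number of 6q windows called in CP70 (36) became 7 and 1 with pseudocounts of 0.5 and 1, 23 with a mean above 2 FPKM, 14 with the upper depth limit, 6 with median centring and 11 with quantile normalization. In PEA2 (20) it became 2 and 0 with the pseudocounts, 41 with no filter and 2 above 2 FPKM, where edgeR called 24. In PEO4 (105) it became 38 and 9 with the pseudocounts and 44 above 2 FPKM. At the looser thresholds the counts were 165 in CP70 (271), 32 in PEA2 (101) and 238 in PEO4 (399) with a pseudocount of 1, 59 in PEA2 with 0.5, 432 in CP70 and 268 in PEA2 with no filter, and 165, 30 and 238 above 2 FPKM. The upper depth limit gave 110 in CP70. Centring gave 130 in CP70 and 167 in PEA2, and quantile normalization 143 and 189.

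The balance of calls moved too. With centring and quantile normalization, at the stricter thresholds, PEA2 went from 13 higher and 7 lower to 9 and 9 and to 4 and 15, and PEO4 from 29 and 76 to 37 and 40 and to 36 and 41. The looser calls of PEA2 went from 49 and 52 to 30 and 137 and to 21 and 168, and those of PEO4 from 65 and 334 to 90 and 216 under both. The looser calls of PEA2 were also 192 higher and 76 lower with no filter, 34 and 25 with a pseudocount of 0.5, 19 and 13 with 1, and 2 and 28 above 2 FPKM, and its stricter calls were 0 and 2 above 2 FPKM.

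For the median of the 6q windows minus the rest of chromosome 6, the promoter value in CP70 (0.79) was 0.58 with a pseudocount of 1, 0.61 with the upper depth limit and 0.92 against other chromosomes, and the distal value (0.79) was 0.65 and 0.53 with the pseudocounts and 0.48 with no filter. In PEA2 the promoter value (−0.04) was −0.32 against other chromosomes, and the distal value (−0.75) was −0.62 and −0.51 with the pseudocounts, −0.34 with no filter and −0.84 against chromosome 6 below 105 Mb. In PEO4 the promoter value (−1.30) was −1.11 with a pseudocount of 1, −1.48 with the upper depth limit and −0.38 against other chromosomes, and the distal value (−1.09) was −0.95 and −0.81 with the pseudocounts, −0.27 against other chromosomes and −1.27 against chromosome 6 below 105 Mb. That last reference was chosen after seeing the data. The cause of these changes was not tested.

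Leaving out 1 library at a time gave 11 to 59 stricter calls in CP70, 11 without CP70 replicate 1 and 59 without CP70 replicate 3, 11 to 28 in PEA2, with 11 without PEA2 replicate 1, and 101 to 107 in PEO4. The looser counts ranged from 218 to 288, 88 to 146 and 388 to 411. The promoter medians ranged from 0.73 to 0.83, −0.07 to 0.03 and −1.34 to −1.27, and the distal medians from 0.74 to 0.85, −0.82 to −0.63 and −1.10 to −1.04. The replicate numbers did not pair the libraries, with correlations of deviations from −0.41 to 0.04, and the replicate block left the counts at 36, 20 and 105 and at 271, 101 and 399 and changed no other call. Single windows lost their call in 21 cases of a window under another setting and in 14 of a window with 1 library left out. Those named above were BCLAF1, CCN2, EYA4, HIVEP2, IFNGR1, PTPRK, REV3L, TNFAIP3 and the MCM9, TMEM200A and UST windows in PEA2 and the SASH1 window in PEO4. The losses came with the larger pseudocounts or with a PEA library left out. Depth limits the CP70 values, with a median of 11 to 20 reads per library over the windows of the table.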
